A study of Mus musculus with 2 samples.

Results

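Genes of the enzymes and the transporter that buffer ATP were followed in newborn mouse skeletal muscle. They were the creatine kinase genes Ckm, Ckb and Ckmt2, the creatine transporter gene Slc6a8, the adenylate kinase genes Ak1 and Ak3, and the AMP deaminase genes Ampd1, Ampd2 and Ampd3. The 9 members were chosen by name for their role out of the 43346 genes in the deposited tables, and each had a row in each library. The muscle came from B6NCrl mice on postnatal day 0, with no treatment and no genetic change named in the labels. There were 2 libraries, replicates 1 and 2 of 1 group, each made by a SmartSeq protocol from 13 pg of total RNA taken from a piece of muscle from 1 pup. The labels set that input equal to the RNA of a cell, but it was drawn from tissue RNA and not from an isolated cell. Per the labels the pieces are recorded separately but share a donor entry, and sex was not collected. Whether the spread between the libraries comes from the animals, the tissue pieces or the amplification therefore cannot be told apart. With 1 group of 2 libraries there is no comparison between conditions and no p-value can be given.

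Contraction can spend ATP faster than metabolism refills it, and near-equilibrium kinases bridge the gap. Creatine kinase moves a phosphate between ATP and creatine: the Ckm product is the cytosolic muscle form that also sits in the sarcomere M-line, the Ckb product is the cytosolic form best known from brain, and the Ckmt2 product is the sarcomeric mitochondrial form that charges creatine with phosphate at the site of ATP production. Creatine enters the fibre through the Slc6a8 transporter. Adenylate kinase turns ADP into ATP and AMP, with Ak1 as the cytosolic form of muscle and Ak3 as a mitochondrial matrix enzyme that works on AMP with GTP. AMP deaminase removes the AMP as IMP, with Ampd1 as the skeletal muscle form, Ampd2 as the form of most other tissues and Ampd3 as the form known from red cells.

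Values below are TPM, the length-adjusted share of transcripts in a library, with the mean and SD over n = 2 libraries. Reads are expected counts, the quantifier's estimates, which can be fractional. The libraries held 32103374 reads in replicate 1 and 38977618 in replicate 2, and the spike-in share of TPM was 9.44% in replicate 1 against 4.54% in replicate 2. All 9 skeletal muscle markers were detected in both libraries, with a summed level of 125767 and 144308 TPM in replicates 1 and 2. Of 6 heart markers (summed level 223 and 338 TPM), only Myl2 was detected in both libraries, and Nppa, Tnni3 and Ryr2 had 0 TPM in both. Fibroblast markers were detected for 5 of 5 genes (summed level 6606 and 4104 TPM), erythroid markers for 4 of 8 (3292 and 3629 TPM), adipocyte markers for 3 of 5 (2315 and 859 TPM), macrophage markers for 3 of 5 (626 and 227 TPM), endothelial markers for 4 of 5 (517 and 234 TPM), smooth muscle and pericyte markers for 2 of 5 (372 and 571 TPM) and nerve and glia markers for 0 of 7 (43.0 and 5.55 TPM). In such tissue RNA, fewer cells of a type and less RNA per cell cannot be told apart.

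The regulatory sequence in front of the creatine kinase genes and of the main Ak1 start is shown because these genes span the levels described next. Each stretch runs 5′ to 3′ from 250 bases before to 50 after the RefSeq start on GRCm38.p6, and capitals mark the E-box word CANNTG, the site class bound by myogenic regulators, the TATA word TATAAA, and its longer relative TATATAA. Positions are counted from 1 at the start, with bases before it negative. The Ckm stretch is chr7:19410844-19411143 on the plus strand, Ckb chr12:111672289-111672588 on the minus strand, Ckmt2 chr13:91876836-91877135 on the minus strand and Ak1 chr2:32625187-32625486 on the plus strand.
Ckm: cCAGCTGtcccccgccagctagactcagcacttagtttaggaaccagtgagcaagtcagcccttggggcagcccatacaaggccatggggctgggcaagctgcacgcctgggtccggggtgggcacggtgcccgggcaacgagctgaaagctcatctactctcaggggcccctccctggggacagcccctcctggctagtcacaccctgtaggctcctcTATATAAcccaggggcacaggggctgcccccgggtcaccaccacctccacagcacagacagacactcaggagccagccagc
Ckb: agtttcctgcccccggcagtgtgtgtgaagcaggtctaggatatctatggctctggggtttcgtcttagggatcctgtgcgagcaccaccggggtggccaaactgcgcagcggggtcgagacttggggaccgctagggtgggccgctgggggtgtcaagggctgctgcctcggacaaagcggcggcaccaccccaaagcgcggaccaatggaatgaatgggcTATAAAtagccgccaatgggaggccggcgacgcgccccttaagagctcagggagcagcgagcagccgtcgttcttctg
Ckmt2: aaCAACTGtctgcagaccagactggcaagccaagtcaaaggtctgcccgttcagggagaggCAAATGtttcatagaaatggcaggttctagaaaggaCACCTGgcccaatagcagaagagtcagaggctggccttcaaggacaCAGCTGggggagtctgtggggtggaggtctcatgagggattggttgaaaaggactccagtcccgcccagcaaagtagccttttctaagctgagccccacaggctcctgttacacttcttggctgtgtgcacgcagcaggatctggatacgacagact
Ak1: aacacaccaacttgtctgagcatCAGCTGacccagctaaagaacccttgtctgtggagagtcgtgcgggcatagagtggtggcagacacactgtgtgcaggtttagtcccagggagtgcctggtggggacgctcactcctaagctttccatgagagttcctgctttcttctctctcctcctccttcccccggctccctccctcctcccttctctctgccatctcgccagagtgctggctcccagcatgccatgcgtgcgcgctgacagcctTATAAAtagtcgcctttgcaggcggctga

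The Ckm stretch held 1 E-box, CAGCTG at −249, and TATATAA at −31. The Ckb stretch held 0 CANNTG words and had TATAAA at −28. The Ckmt2 stretch held 4 CANNTG words, at −248, −189, −153 and −107, of which the third is CACCTG and the last CAGCTG, and it held neither TATA word. The Ak1 stretch had CAGCTG at −227 and TATAAA downstream of the start, at 22. Among 32851 mouse promoter stretches of the same length, searched on both strands, 72.3% held CANNTG, 16.3% held CAGCTG, 20.2% held CACCTG or its reverse complement, 13.6% held TATAAA and 3.24% held TATATAA. Both named E-box forms are themselves cases of CANNTG, and the longer TATA word was added to the search after the Ckm sequence had been read. A match describes letters and not a bound site. RefSeq starts were found for 7 of the 9 members, with Ampd1 and Slc6a8 unmatched. No transcript of the annotation used for names began within 10 bases of the RefSeq start of Ckm; its Ckm-201 begins at 19411063, upstream of it.

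Ckm was the most abundant member by far. It reached 15329 TPM in replicate 1 and 12637 in replicate 2 (13983 ± 1904, SD, n = 2), from 492232 and 519639 reads, and held place 5 and place 8 among all genes. It took 1.53% of all TPM in replicate 1 and 1.26% in replicate 2. The gene lies on chromosome 7 (GRCm38, 19404776 to 19422841, plus strand). Of the 100-base windows of its transcripts, 14.5% also occur in the antisense gene A930016O22Rik, which was given 496 and 666 reads, and the sources do not say whether strand was used in counting.

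**Figure D1:**
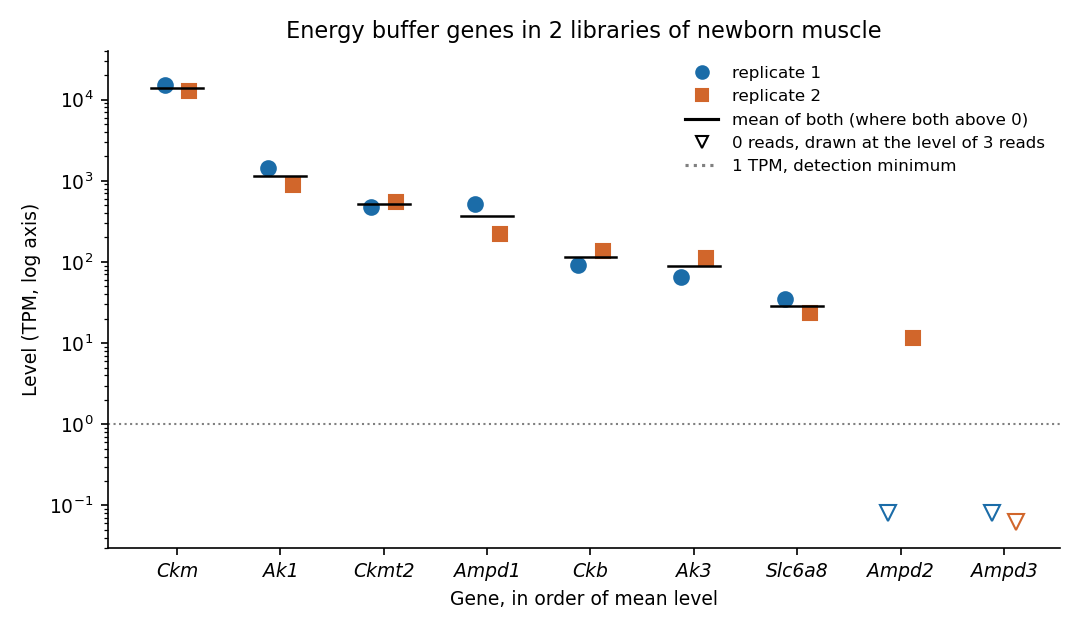
Level of each member (vertical log axis, TPM) in replicate 1 (circles) and replicate 2 (squares), with a bar at the mean where both are above 0; open triangles mark 0 reads, drawn at the level that 3 reads would give, and the dotted line is the 1 TPM detection minimum. Ckm stands above all other members at 15329 and 12637 TPM, and Ampd3 has 0 reads in both libraries.

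Ckmt2, the mitochondrial partner (chromosome 13, 91853387 to 91876885, minus strand), had 471 and 555 TPM in replicates 1 and 2 (513 ± 59.6) from 15926 and 24045 reads. It held place 285 in replicate 1 and place 256 in replicate 2. Ckb (chromosome 12, 111669361 to 111672338, minus strand) had 90.7 and 137 TPM (114 ± 32.8) from 3053 and 5910 reads. Of the 1373 windows of the Ckb transcripts, 151 are shared with the gene Gm12892, which had 6 and 14 reads. The replicate with more Ckb also had the higher summed smooth muscle markers, 571 against 372 TPM, and the lower nerve and glia markers, 5.55 against 43.0 TPM; the part of these cells in the Ckb level was not tested. Ckmt1, the ubiquitous mitochondrial form and the remaining creatine kinase, had 2 reads in replicate 1 (0.210 TPM, exact Poisson 95% interval 0.242 to 7.22 reads) and 0 in replicate 2, where 3 reads would be 0.120 TPM. This interval and all limits from a count of 0 cover counting error only, since amplified reads without molecular identifiers are not separate molecules.

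Most creatine kinase RNA was Ckm in both libraries. It held 96.5% and 94.8% of the family's summed TPM (95.6 ± 1.17%), Ckmt2 2.96% and 4.16% (3.56 ± 0.849%), and Ckb 0.571% and 1.03% (0.800 ± 0.324%). The family as a whole summed to 15890.3 and 13329 TPM (14609 ± 1811). Within each library, genes were set against each other as the log2 ratio of TPM + 1, and a ratio was said to exceed the spread where both libraries gave the same sign and the mean was larger than 2 SD, which with n = 2 is a description. Ckm over Ckb was 7.38 and 6.52 in log2 (6.95 ± 0.61), which in TPM is 169-fold and 92.1-fold. Ckm over Ckmt2 was 5.02 and 4.51 (4.76 ± 0.36), 32.6-fold and 22.8-fold. Ckmt2 over Ckmt1 was 8.61 and 9.12 (8.86 ± 0.36). In replicate 2 Ckmt2 was 4617-fold above the 3-read floor of Ckmt1. The deposited posterior mean estimates, which put genes with 0 reads above 0, gave 1136-fold for Ckmt2 over Ckmt1 there. Folds against the floor are thus not lower limits and depend on the estimate used. All of these log2 ratios exceeded the spread.

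**Figure D2:**
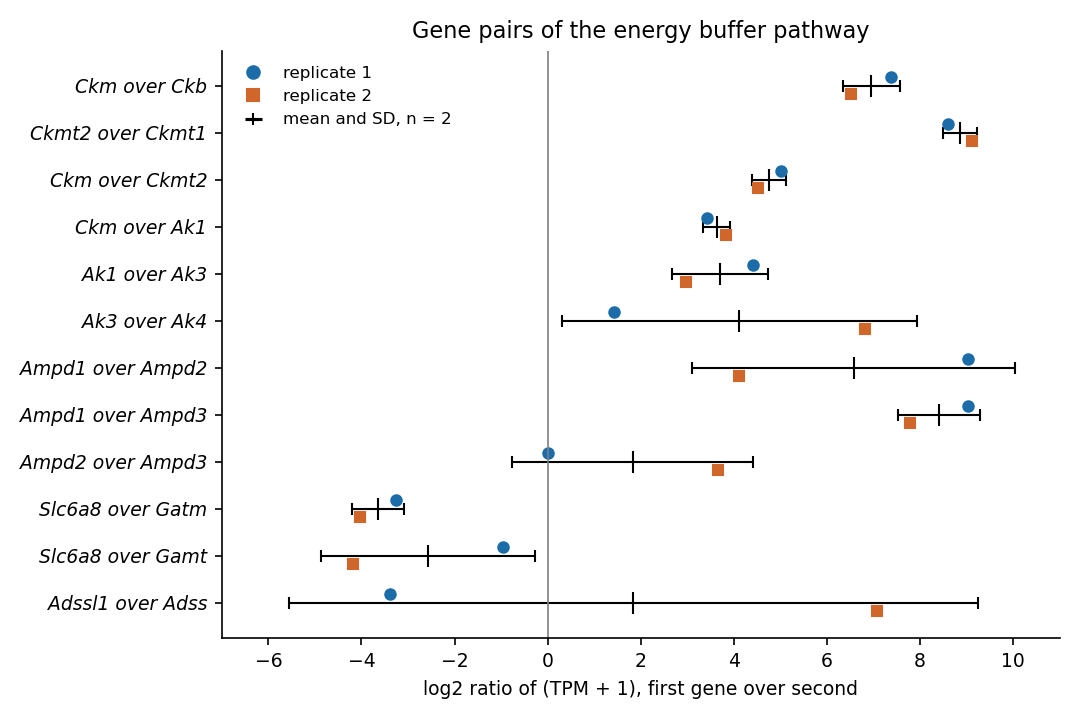
Log2 ratio of TPM + 1 of the first gene over the second (horizontal axis) for 12 gene pairs, with circles for replicate 1, squares for replicate 2, and a tick and bar for the mean and SD (n = 2). Ckm over Ckb, Ckm over Ckmt2 and Ckm over Ak1 lie above 0 in both libraries, while Adssl1 over Adss lies at −3.39 in replicate 1 and 7.08 in replicate 2.

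Slc6a8, which carries creatine into the cell (chromosome X, 73673150 to 73682502, plus strand), had 34.7 and 23.2 TPM in replicates 1 and 2 (29.0 ± 8.09) from 2226 and 1911 reads. Its place was 3269 in replicate 1 and 4013 in replicate 2, the lowest of the members found in both libraries. The genes of creatine synthesis stood above it. Gatm, which makes guanidinoacetate from arginine and glycine, had 339 and 399 TPM (369 ± 42.2), and Gamt, which methylates it to creatine, had 67.7 and 440.1 TPM (254 ± 263). Slc6a8 over Gatm was −3.25 and −4.04 in log2 (−3.65 ± 0.56), beyond the spread, so the transporter RNA was 0.102 and 0.0583 times the Gatm level. Slc6a8 over Gamt was −0.95 and −4.19 (−2.57 ± 2.29), within 2 SD, with Gamt being the gene that differed between the libraries. All 3 genes of creatine synthesis and uptake were detected in both.

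The transcript table put every Slc6a8 read of both libraries on Slc6a8-202, 1 of 13 annotated transcripts. It is 2729 bases long, is annotated as a target of nonsense-mediated decay and starts at 73676846, inside the gene. Of its 100-base windows, 97.7% also occur in other Slc6a8 transcripts, and it shares its last 1918 bases with the coding Slc6a8-201 and its last 2666 with the coding Slc6a8-203. Under the posterior mean estimates deposited in the same tables its share was 97.9%. The split of reads between these transcripts is the quantifier's estimate.

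Ak1 was the second most abundant member. It reached 1420.1 TPM in replicate 1 and 884 in replicate 2 (1152 ± 379) from 65629 and 53487 reads, at places 72 and 143. The gene lies on chromosome 2 (32621758 to 32635058, plus strand), and none of its 100-base windows occurs in another gene. Ckm over Ak1 was 3.43 and 3.84 in log2 (3.63 ± 0.29), 10.8-fold and 14.3-fold, and exceeded the spread. Ak3 (chromosome 19, 29020833 to 29047961, minus strand) had 65.2 and 112 TPM (88.6 ± 33.0) from 4308 and 7445 reads. Of the Ak3 windows 17.1% are shared with Cdc37l1 and 1700018L02Rik on the opposite strand, which together had 0 reads in replicate 1 and 377 in replicate 2.

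Ak1 led the adenylate kinase family in both libraries, although its share moved more than that of Ckm. It held 84.1% and 67.9% of the family's summed TPM (76.0 ± 11.5%), and Ak3 3.87% and 8.59% (6.23 ± 3.34%). Ak6, a nuclear adenylate kinase family member, held 8.16% and 17.2% (12.7 ± 6.42%) at 138 and 224 TPM. Of its 2668 windows, 54.7% also occur in Taf9, which was given 26 and 6 reads, so the split of reads between these genes is uncertain. Ak1 over Ak3 was 4.42 and 2.97 in log2 (3.70 ± 1.03), 21.8-fold and 7.90-fold, beyond the spread. Ak4, another mitochondrial matrix form, had 481 reads in replicate 1 (23.6 TPM) and 0 in replicate 2. Ak3 was therefore 2.76-fold higher than Ak4 in replicate 1 and 2376-fold above the 3-read floor of Ak4 in replicate 2 (355-fold by posterior means). Their log2 ratio of 4.12 ± 3.81 did not exceed the spread. A further 4 genes of the family had 0 reads in both libraries.

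The transcripts of Ak1 and Ak3 came mostly from a full-length form. Ak1-202, which begins at the start shown above (32625437), held 94.8% and 97.6% of the gene's TPM, from 64486 and 52929 reads. Ak1-203, from the upstream start at 32621758, held 1.10% and 0.676%. Ak3-201 held 99.8% in replicate 1 and 74.8% in replicate 2, where the remaining 25.2% was the 504-base Ak3-202, from 356 reads against 1 read in replicate 1. Because Ak3-202 is short, those few reads weigh more in TPM than in counts. Cdc37l1, which shares Ak3 windows on the opposite strand, had 0 and 368 reads in replicates 1 and 2. The split of reads between it and Ak3-202 was not tested. Ckm, Ckb and Ckmt2 each had 1 transcript in the tables.

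**Figure D3:**
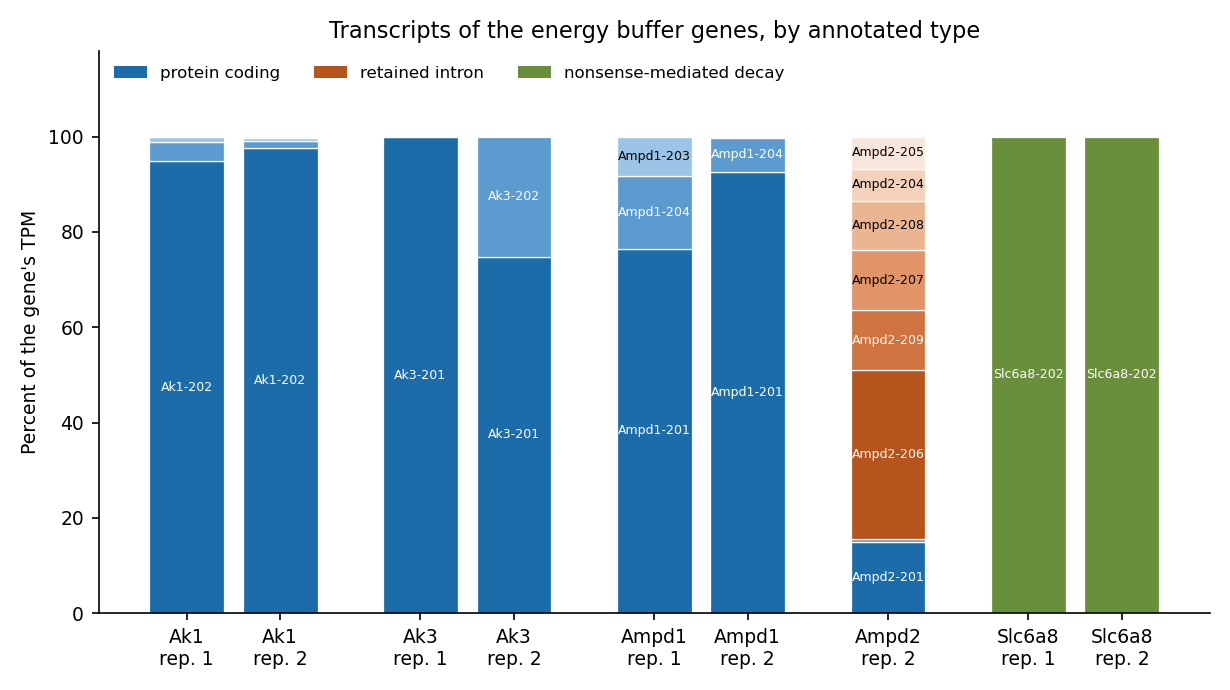
Share of each transcript in the TPM of its gene (vertical axis, percent) for the members with several transcripts and reads, by library; colour gives the annotated transcript type and shades separate transcripts. Ak1-202 holds 94.8% and 97.6% of Ak1, all Slc6a8 reads sit on Slc6a8-202, and Ampd2, seen in replicate 2 only, is mostly retained-intron types at 84.5%.

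Ampd1 carried nearly all AMP deaminase RNA. It had 519 TPM in replicate 1 and 218 in replicate 2 (369 ± 213) from 23472 and 14513 reads, at places 256 and 623, and lies on chromosome 3 (103074014 to 103099720, plus strand). Ampd2 (chromosome 3, 108074062 to 108086651, minus strand) had 0 reads in replicate 1, for which 3 reads would be 0.0804 TPM, and 376 reads in replicate 2, at 11.7 TPM. Ampd3 (chromosome 7, 110768206 to 110812405, plus strand) had 0 reads in both, where 3 reads would be 0.0797 TPM in replicate 1 and 0.0622 in replicate 2. The deposited posterior means for Ampd3 were higher than these floors, at 0.470 and 0.370 TPM. Haemoglobin and other erythroid markers summed to 3292 and 3629 TPM in the same libraries, in which the red cell form Ampd3 was listed at 0. Ampd1 thus held 100% and 94.9% of the family (97.5 ± 3.58%).

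Ampd1 was 6518-fold above the 3-read floor of Ampd3 in replicate 1 and 3511-fold above it in replicate 2. By posterior means Ampd1 over Ampd3 was 1081-fold and 581-fold, so the floor folds are not lower limits. The log2 ratio of TPM + 1 was 9.02 and 7.78 (8.40 ± 0.88), beyond the spread. Ampd1 over Ampd2 was 9.02 and 4.12 (6.57 ± 3.47), of the same sign in both libraries but within 2 SD. In TPM it was 18.7-fold in replicate 2. In replicate 1 it was 6459.8-fold against the floor and 1081-fold by posterior means. Ampd2 over Ampd3 was 0.00 and 3.66, with both genes at 0 in replicate 1. In replicate 2 Ampd2 was 187-fold above the floor of Ampd3 and 32.3-fold above Ampd3 by posterior means. The Ampd2 reads of replicate 2 fell on 8 of its 10 transcripts. Of these, 192 were on retained-intron types, which made up 84.5% of the gene's TPM, led by Ampd2-206 at 35.5%, and 184 were on coding transcripts, led by Ampd2-201 at 14.9%. Ampd2-206 is 537 bases long against 3368 for Ampd2-201, so its reads weigh more in TPM than in counts. Ampd2-201 stood at 1.73 TPM from 176 reads and Ampd2-206 at 4.13 TPM from 57. The gene's 11.7 TPM, and the ratios and shares taken from it, rest on this length term. Ampd1-201 held 76.5% and 92.6% of Ampd1; the short Ampd1-204 held 15.2% and 7.07%, and Ampd1-203 had 500 reads in replicate 1 and 0 in replicate 2.

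By mean level the members ran Ckm, Ak1, Ckmt2, Ampd1, Ckb, Ak3, Slc6a8, Ampd2 and Ampd3. Of the 8 neighbouring pairs in this order, 2 differed by more than the spread: Ckm over Ak1, given above, and Ckb over Ak3, at a log2 ratio of 0.38 ± 0.13. The order was taken from these same levels, so the direction of a pair was largely set beforehand. Ckb over Ak3 also rests on the length term of TPM, since Ak3 had more reads than Ckb in both libraries. Ak1 over Ckmt2 was 1.13 ± 0.65, Ampd1 over Ckb 1.59 ± 1.30 and Ak3 over Slc6a8 1.56 ± 0.94, each of the same sign in both libraries but within 2 SD. Ckmt2 over Ampd1 was 0.60 ± 1.05 and turned round, at −0.14 in replicate 1 and 1.34 in replicate 2. Slc6a8 over Ampd2 was 3.05 ± 2.98. Of 12 gene pairs, 7 exceeded the spread and 10 had the same sign in both libraries.

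**Figure D4:**
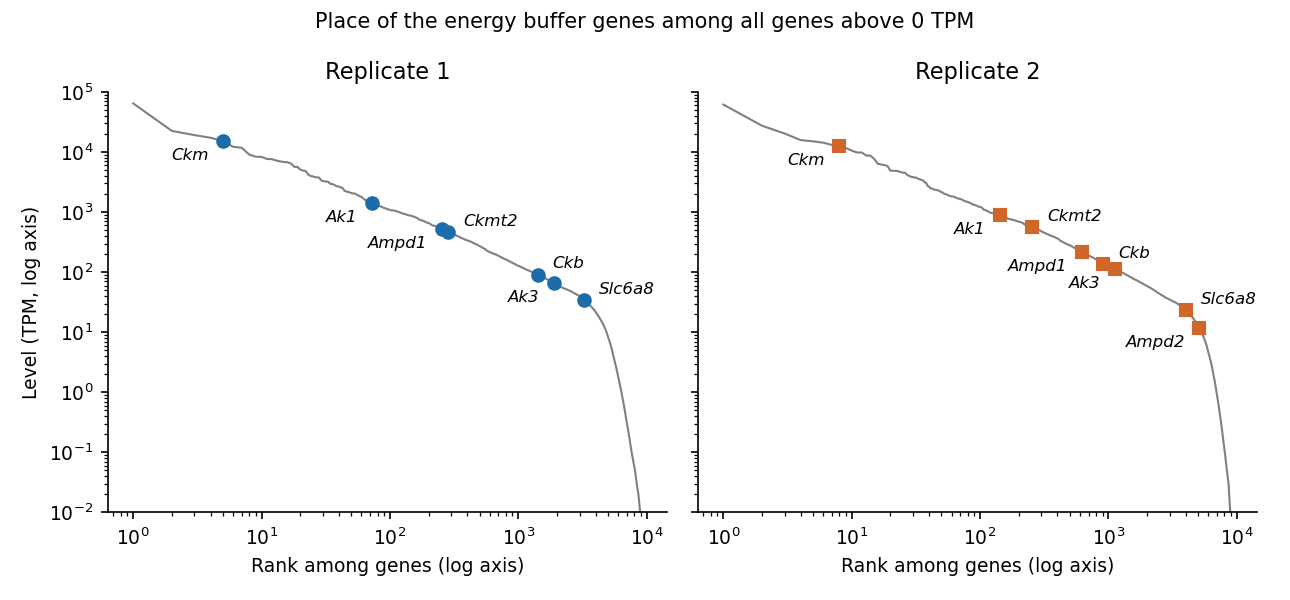
TPM (vertical log axis) against rank among all genes above 0 TPM (horizontal log axis) in each library, with the members marked on the curve. Ckm sits at place 5 in replicate 1 and 8 in replicate 2, and Slc6a8 at place 3269 and 4013.

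Detection was called at 1 TPM or more with at least 5 reads. By that rule 7 of the 9 members (77.8%) were detected in both libraries, Ampd2 in replicate 2 only and Ampd3 in neither. Of all 43346 genes, noncoding ones included, 10% (4356) were detected in both. A further 1994 were detected in replicate 1 only and 2593 in replicate 2 only. The median of mean TPM was 114 over all 9 members and 0 over all genes. For the 4356 genes detected in both it was 46.2, but that set leaves out Ampd2 and Ampd3, which the 114 includes. The members' summed level was 17929 TPM in replicate 1 and 14577 in replicate 2. They were picked for known roles in muscle, so that a high share is a description of the choice as well as of the tissue.

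Between the libraries most members differed by less than the 2-fold limit, taken on the log2 ratio of replicate 2 over replicate 1 centred on the median gene with at least 10 reads in both. Ampd1, at 218 TPM in replicate 2 and 519 in replicate 1, was the exception among the 7 members with enough reads, at a centred log2 ratio of −1.20. Ak3 stood at 0.83, Ckb at 0.65, Ckmt2 at 0.29, Ckm at −0.23, Slc6a8 at −0.53 and Ak1 at −0.63. Of all 4872 genes with at least 10 reads, 51.0% passed 2-fold in either direction, and of the 2632 genes with at least 1000 reads in both, a limit set after the data had been seen and met by all 7 members, 33.2% did. The members' median size of centred ratio was 0.63, against 1.02 for genes with at least 10 reads and 0.66 for those with at least 1000. With 7 genes, the count of 1 was not read as a difference from either share. Of 25 spike-ins with at least 10 reads, 4 passed the limit, with an SD of 1.00.

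The centring matters for direction. The median gene ratio was −0.05 and the median spike-in ratio −0.98, and with spike-ins as the centre Ckm went to 0.70, Ak1 to 0.30 and Slc6a8 to 0.41, which turns their sign. Ckb, Ckmt2 and Ak3 then passed 2-fold, at 1.58, 1.22 and 1.76, and Ampd1, at −0.27, did not. No direction between the libraries can thus be given for Ckm, Ak1 and Slc6a8. Skeletal muscle markers summed to 144308 TPM in replicate 2 and 125767 in replicate 1, while fibroblast markers (4104 and 6606 TPM) and adipocyte markers (859 and 2315 TPM) were lower in replicate 2; their part in the Ampd1 difference was not tested.

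The other genes of the pathway were read from fixed lists. Beside their counts stands the 10% of all 43346 genes detected in both libraries. That share includes noncoding genes, while every list gene with a row is protein coding. The ADP and ATP exchange list, which links mitochondria to these buffers, had 6 of 7 genes detected in both libraries. Slc25a4, the muscle ADP/ATP carrier, had 2609 and 3582 TPM (3096 ± 688), above every member but Ckm, and Slc25a5 had 925 and 498 TPM (711 ± 302). Slc25a3, the phosphate carrier, had 372 and 510.0 TPM, and Vdac1, the outer membrane channel, 524 and 265 TPM. The purine nucleotide cycle, which turns IMP from AMP deaminase back into AMP, had 2 of 6 genes in both, Ampd1 and Adsl, the adenylosuccinate lyase at 58.2 and 282 TPM. For its synthetase step the higher gene was not the same in both libraries. Adssl1, the muscle form, had 35 reads in replicate 1 (0.850 TPM) and 7073 in replicate 2 (134 TPM), while Adss, the form of other tissues, had 1202 reads in replicate 1 (18.4 TPM) and 0 in replicate 2. Adssl1 over Adss was −3.39 and 7.08 in log2 (1.84 ± 7.40).

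The AMP-activated kinase list, the sensor of AMP, had 4 of 8 genes in both, led by Prkag1, a regulatory subunit, at 112 and 78.9 TPM; Prkag2 had 42.0 and 6.34, Prkab2 13.6 and 18.1, and the catalytic Prkaa2 3.61 and 11.5 TPM. The AMP breakdown and purine salvage list had 3 of 9 genes with a row in both. They were Hprt, which salvages hypoxanthine, at 169 and 23.6 TPM, and the nucleotidases Nt5c at 64.6 and 9.82 TPM and Nt5c3 at 1.62 and 50.4 TPM. A place on this list does not make a nucleotidase specific to AMP. A further 4 genes of that list were detected in 1 library only. Among all genes this was common, with 1994 detected in replicate 1 only and 2593 in replicate 2 only, beside 4356 in both. Creatine kinases were detected for 3 of 4 genes and adenylate kinases for 4 of 9.

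**Figure D5:**
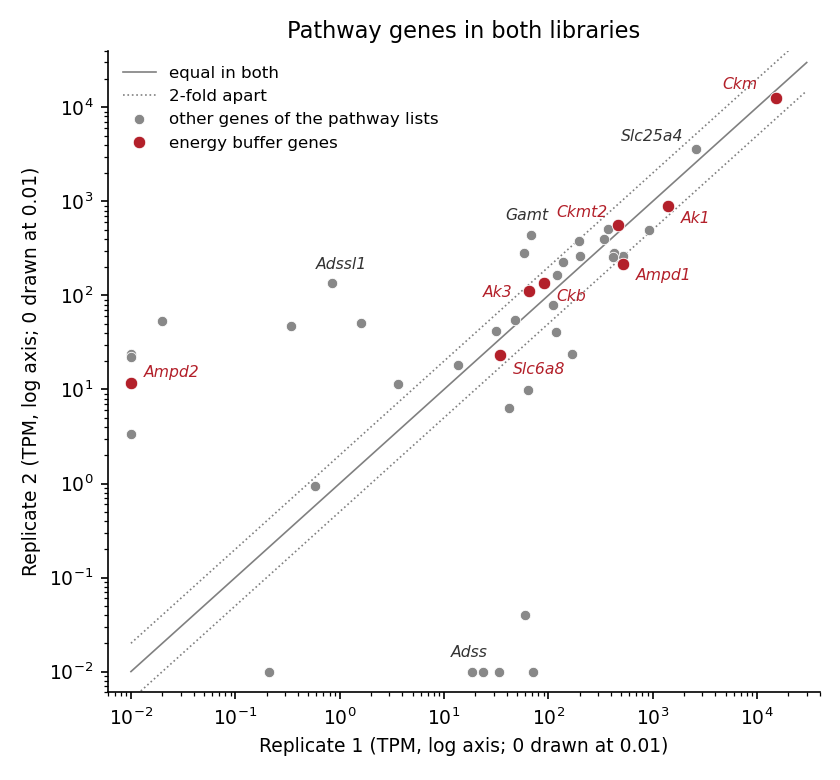
TPM in replicate 1 (horizontal log axis) and replicate 2 (vertical log axis) for the members (red) and the other genes of the pathway lists (grey), with 0 drawn at 0.01; the solid line marks equal levels and the dotted lines a 2-fold difference before centring. Members other than Ampd1 and Ampd2 lie between the dotted lines, and Adssl1 and Adss lie far off on opposite sides; Ampd3, at 0 in both libraries, is not drawn.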

How the data were processed

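Per the notes deposited with the samples, each library was quantified on its own against mm10 and the GENCODE M4 annotation. Neither the aligner nor the use of strand is given in the sources used here. Unnormalized expected counts were deposited, in tables whose columns, per the file headers, follow RSEM output with posterior means. TPM in the deposited tables is corrected for length and scaled over all rows, spike-ins included, so a higher spike-in share lowers every gene. The deposited FPKM values and the deposited percent of a gene's TPM held by each transcript served as alternatives only. Numbered rows (0 and 182 expected counts) were left out.

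Members were matched by identifier without version to GENCODE M21 names and GRCm38 positions, which gave a symbol to 42462 of 43346 genes. Members and lists were chosen with earlier results of these data known. All 9 members were named; of each list, the genes detected in both libraries, at most 4 by mean TPM, and members' family genes; of transcripts, those with at least 10% of their gene in a library. Other transcripts named, Ak1-203 and Ampd1-203, were chosen after their values were seen. Detection needed 1 TPM and 5 expected counts, pair ratios used a pseudocount of 1, and a count of 0 was taken to allow 3 counts. The 100-base windows stand in for reads and were taken from M21 transcripts. Ckm-201 is 1415 bases long in the files and 1235 in M21. A gene of the adenylate kinase list is not reported here, though it is counted in that list and in the family sum. Promoters came from RefSeq. The ratio code was tested on simulated data. edgeR 4.0.16 and DESeq2 1.42.0 in R 4.3.3 gave scaling factors for alternatives only, on rounded counts; everything else ran in Python 3.11.15 (pandas 2.3.3, numpy 2.4.6, scipy 1.17.1, figures with matplotlib 3.10.9). The labels number the libraries as biological replicates but give both the same donor entry, so the SD may not hold any difference between animals and may be wholly technical.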

Additional observations from a re-analysis of the deposited data

How the results depend on the processing

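No paired analysis was possible because both libraries belong to 1 group. Apart from leaving out a library, which with 2 libraries cannot move a mean by 1 SD and so shows nothing about stability, 123 values were recalculated. Of these 110 stayed within 1 SD (counts within 1.5 times) of the reported value, 13 moved, and 0 of the recalculated values beyond the spread changed sign. Ckb over Ak3 was not among the recalculated values. By reads, with no length term, its sign turns: Ckb had 3053 and 5910 reads in replicates 1 and 2, and Ak3 4308 and 7445. The number of members past 2-fold between the libraries was 1 as reported, 3 when centred on spike-ins and 2 with no filter on low counts, where Ampd2 joined Ampd1. It was 1 with no centring, with TMM (Ampd1 at −1.05) or DESeq2 factors (−1.04), and at 100 or, chosen after seeing the data, 1000 counts. Members detected numbered 7, with 8 in replicate 2 alone and 7 in replicate 1 alone. Without each replicate in turn, Ckm held 94.8 to 96.5% of creatine kinases, Ak1 67.9 to 84.1% of adenylate kinases and Ampd1 94.9 to 100% of AMP deaminases; the pair and 2-fold counts need both libraries. In FPKM Ckm averaged 10891 and Ckmt2 401, and the posterior mean TPM of Ampd3 was 0.420. The log2 ratio of Ckmt2 over Ckmt1 was 11.50, 5.69 and 8.28 with pseudocounts of 0.1 and 10 and posterior means, that of Ampd1 over Ampd3 11.72 and 5.12 with those pseudocounts, and that of Ckm over Ak1 3.09 on counts without a length term. The posterior mean share of Slc6a8-202 was 97.9%, and with any read counted 5 genes of the AMP breakdown and salvage list were found in both libraries. The floors of 3 reads cover counting error only and lie below the posterior means of the paired genes with 0 reads.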

Other observations

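Of the other nucleotide kinases, those detected in both libraries stood between Ckm and Slc6a8 by mean level, although Cmpk1 was below Slc6a8 in replicate 1. The nucleoside diphosphate kinase Nme2, which balances ATP with other triphosphates, had 415 and 258 TPM in replicates 1 and 2 (336 ± 111), the guanylate kinase Guk1 119 and 41.0 TPM, Nme1 47.7 and 54.4 TPM, and the UMP and CMP kinase Cmpk1 31.2 and 41.8 TPM. Of 6 such genes, 4 were detected in both libraries. Of 4 regulators of muscle and energy genes, 2 were detected in both libraries, 1 in replicate 1 only and 1 in neither. Those in both were Myog, a myogenic factor of differentiating myocytes, at 201 and 264 TPM, and Mef2c at 120.3 and 165 TPM.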
